A study of Mus musculus with 6 samples.

Results

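The genes described here encode enzymes that write, erase or read methyl groups on DNA and histones, remove acetyl groups from proteins, or move nucleosomes. They were found by name among the protein-coding rows of the deposited annotation: the Dnmt, Tet and Uhrf genes of DNA methylation, the Kmt, Setd and Ezh methyltransferases, the Kdm demethylases, the Hdac deacetylases, the Smarc genes of the SWI/SNF and related remodellers, and the Chd remodellers. This gave 77 of 25032 genes with a read in some library. All libraries are from BV2, a transformed line derived from mouse microglia, the macrophages of the brain. In 3 libraries the labels give overexpression of GFP, the control protein, and in 3 libraries overexpression of TDP43-NLS, which the series' design text calls a TDP-43 mutated in its nuclear localisation signal. TDP-43 binds RNA and normally resides in the nucleus, and the series asks by its title about necroptosis of microglia. The labels give no time, dose, promoter or clone, and do not say whether the libraries of a group came from separate cultures, so p-values reflect only how much these samples vary, and that variation may be technical.

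DNA methylation at CpG sites generally accompanies silencing and must be copied after each round of replication. Histone methylation marks active or silent chromatin depending on the residue, deacetylation compacts chromatin, and ATP-driven remodellers slide or evict nucleosomes so that transcription factors can reach DNA. In macrophages these enzymes set which inflammatory genes can respond to a signal.

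Each library held 15062131 to 18005592 counted reads, and GFP replicate 2 stood somewhat apart from the other GFP libraries on the second principal component. Tardbp, the mouse gene for TDP-43, had 466, 424 and 465 CPM under GFP and 383, 366 and 382 CPM under TDP43-NLS (log2 fold change -0.26, adjusted p = 0.000269). CPM are counts of a gene relative to the library's total scaled by TMM. The mouse gene was thus lower in the libraries labelled as overexpressing TDP43-NLS. No row is given for the construct itself, so its level was not tested. The groups are called by their labels and every direction rests on those labels. All 10 microglia and macrophage markers had reads, and their summed level was 2570 to 2600 CPM in the GFP libraries and 2580 to 2620 CPM in the TDP43-NLS libraries, although 4 of the 10 rose and 5 fell. The summed markers of neurons, astrocytes, oligodendrocytes, endothelial cells, fibroblasts and T cells stayed at or under 5.33 CPM in every library, and the defining genes Rbfox3, Snap25, Aqp4, Mog, Dcn and Cd3e had no read. The neuronal marker Tubb3 and the endothelial markers Pecam1 and Kdr were called higher, and at these low levels the calls are given as a description. All neuronal markers together reached at most 0.57 CPM in a GFP library. Tubb3 thus passed the filter only through the TDP43-NLS libraries, where it is high, and the same may hold for Pecam1 and Kdr. The low endothelial sum was 0.627 to 1.09 CPM under GFP and 3.17 to 4.05 CPM under TDP43-NLS. In bulk RNA, fewer cells of a kind and less RNA per cell cannot be told apart.

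Differences were tested with edgeR's quasi-likelihood test over 13199 genes, and rose and fell are used where the p adjusted by Benjamini-Hochberg was under 0.05, always as the TDP43-NLS libraries against the GFP libraries. Of the 77 genes, 73 passed the filter on low counts. Of these, 25 rose and 26 fell. In all tested genes 29.3% rose and 28.3% fell, against 34.2% and 35.6% of the chromatin genes. Together 69.9% of the tested chromatin genes were called, where the background was 57.6%. The groups did not overlap in 56 of 73 (76.7%), against 63.2% of all tested genes. Most differences were small: 36 of the 51 called members had an absolute log2 fold change under 0.5. Another 6 (8.22%) were called with one of at least 1, where the background was 10.0%. Hdac7, counted among the 25 and the 6, passed the filter only through the TDP43-NLS libraries, where it is high. The median log2 fold change was -0.02 for the members and 0.00 (0.0028) for all tested genes. The module had no common direction, and its classes are described in turn.

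**Figure D1:**
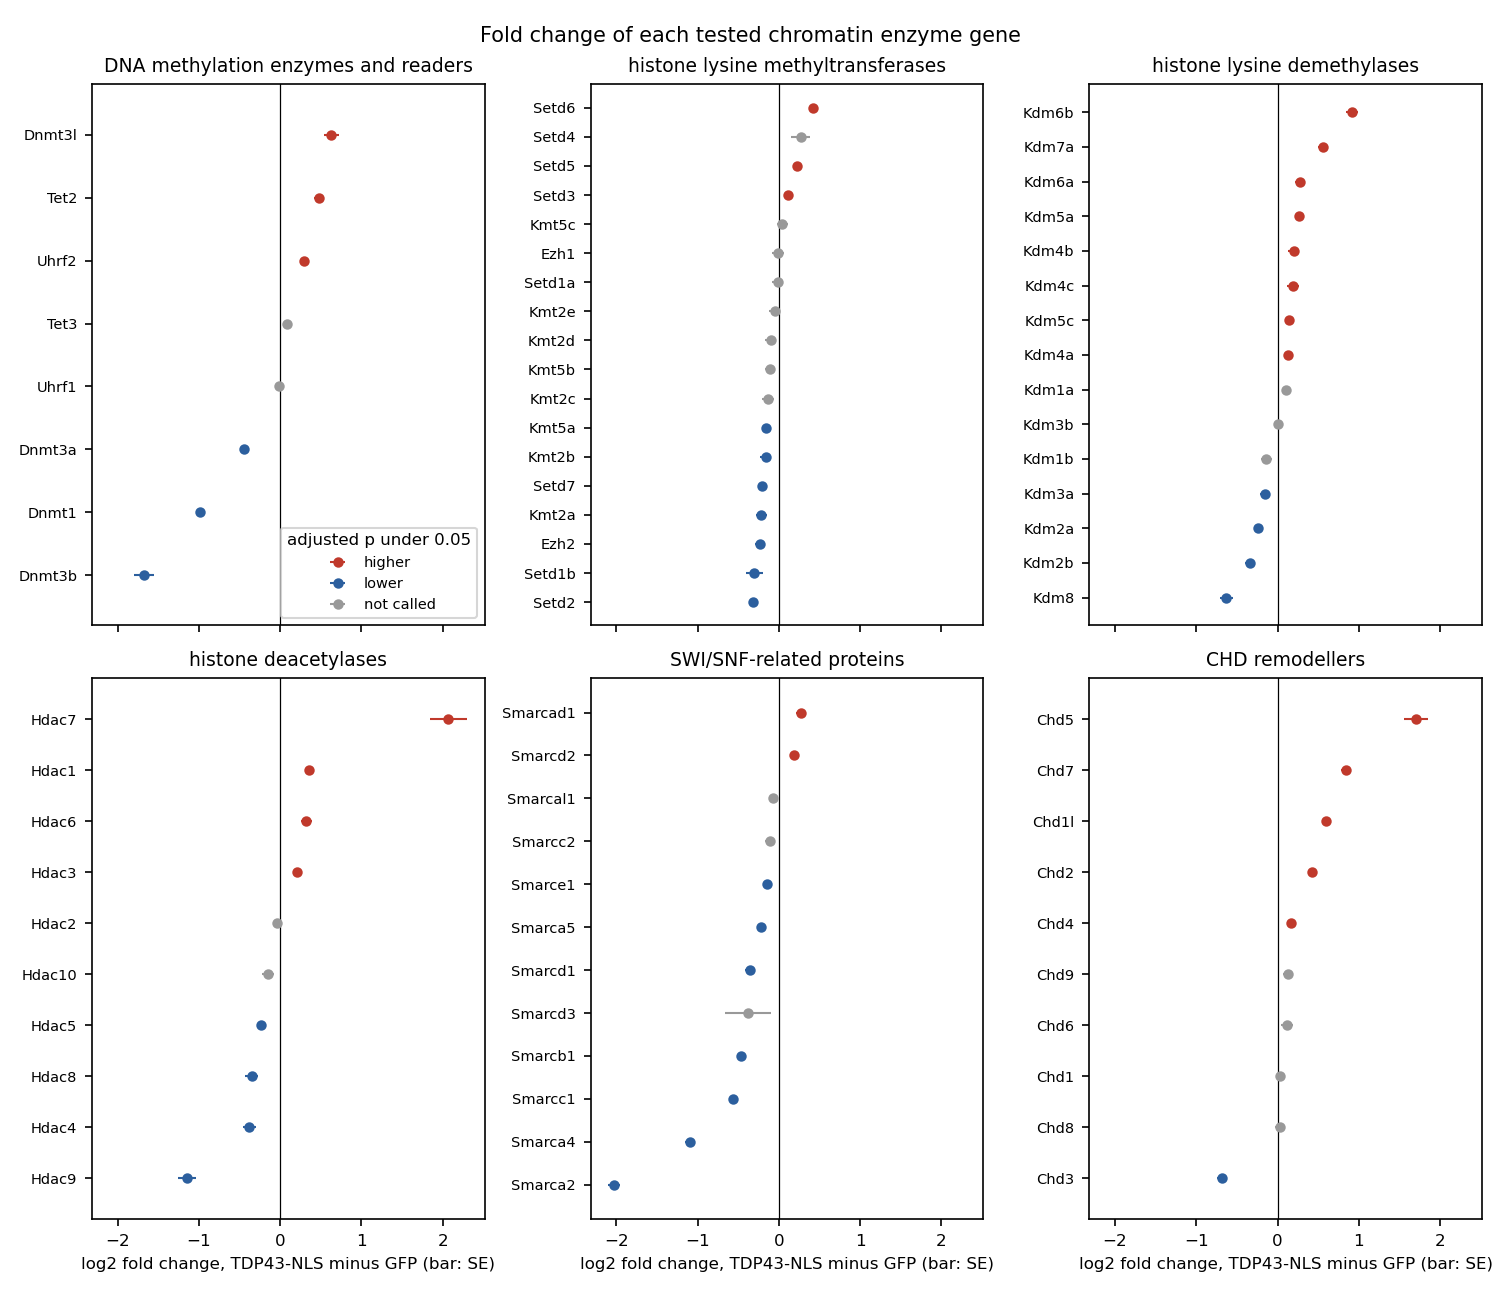
Log2 fold change (horizontal axis, TDP43-NLS minus GFP) with its standard error for each of the 73 tested genes, in 6 panels by class. Red points rose, blue points fell and grey points were not called at an adjusted p of 0.05. Smarca2 at -2.02 and Hdac7 at 2.07 are the ends of the range, and most points lie close to 0. Hdac7 passed the filter only through the TDP43-NLS libraries and overlaps a far more abundant gene, so its point is a description and its value is uncertain.

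Among the members with no test, Dnmt3c, a rodent germline methyltransferase, and Tet1, a methylcytosine dioxygenase, had 1 read each in the GFP libraries and 0 in the TDP43-NLS libraries. Smarca1, an ISWI ATPase, had 0 and 1, and the demethylase gene Kdm4d had 2 and 1. By FPKM, which corrects for gene length and allows levels of different genes to be set side by side, the most abundant members in the GFP libraries were Uhrf1 (103), Dnmt1 (85.3), Chd4 (83.1), Smarca4 (56.9) and Kmt5a (50.2). In the TDP43-NLS libraries Uhrf1 (99.6 FPKM) and Chd4 (91.1 FPKM) led, and Dnmt1 and Smarca4 stood at 42.0 and 26.0 FPKM, in the fifth and the seventh place.

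Promoter sequences are shown for 4 genes on which the results turn and for which RefSeq lists a single start, so that the start is not in doubt: the ATPase genes Smarca2 and Smarca4 and the methyltransferase gene Dnmt3b, which fell, and Tet2, which rose. Each is the 250 bases before the start, 5′ to 3′, from RefSeq on build GRCm38.p6, with GC boxes (GGGCGG on either strand) in capitals.
Smarca2, chr19:26604910-26605159, plus strand: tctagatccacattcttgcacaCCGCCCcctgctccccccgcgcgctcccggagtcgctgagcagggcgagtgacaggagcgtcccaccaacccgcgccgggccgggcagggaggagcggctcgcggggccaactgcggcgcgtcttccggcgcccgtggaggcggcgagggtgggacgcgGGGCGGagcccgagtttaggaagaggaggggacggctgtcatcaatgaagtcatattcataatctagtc
Smarca4, chr9:21615919-21616168, plus strand: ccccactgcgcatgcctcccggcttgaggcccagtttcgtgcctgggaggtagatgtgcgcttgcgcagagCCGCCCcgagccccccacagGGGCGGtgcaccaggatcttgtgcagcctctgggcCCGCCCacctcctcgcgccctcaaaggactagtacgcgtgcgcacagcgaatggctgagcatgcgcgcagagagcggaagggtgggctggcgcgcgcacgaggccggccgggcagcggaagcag
Dnmt3b, chr2:153649199-153649448, plus strand: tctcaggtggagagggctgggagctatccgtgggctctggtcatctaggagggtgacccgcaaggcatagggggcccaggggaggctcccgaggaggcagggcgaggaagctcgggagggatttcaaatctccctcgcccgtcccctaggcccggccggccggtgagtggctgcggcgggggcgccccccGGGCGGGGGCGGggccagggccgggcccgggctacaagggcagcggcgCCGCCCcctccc
Tet2, chr3:133544391-133544640, minus strand: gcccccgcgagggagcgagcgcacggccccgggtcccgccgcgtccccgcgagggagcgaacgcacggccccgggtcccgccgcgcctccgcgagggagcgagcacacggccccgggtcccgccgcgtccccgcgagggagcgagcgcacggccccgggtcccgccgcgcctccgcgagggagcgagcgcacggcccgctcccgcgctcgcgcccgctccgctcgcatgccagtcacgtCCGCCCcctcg

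These 4 promoters hold 21 to 51 CpG pairs and 1 to 3 GC boxes, and no TATA box (TATAAA) was found in them. RefSeq promoters matched 60 of the 77 genes, with 85 starts, and Kdm6b is among the unmatched. A GC box was present in 55 of the 85 (64.7%) and in 32.7% of all 32851 promoters of this length. The median number of CpG pairs was 20 for the members and 6 for all promoters, and a TATA box was found in 3.53% and 12.4%. A CCAAT box (CCAAT) was found in 35.3% and 33.8%, and an AP-1 site (TGANTCA) in 5.88% and 6.75%. A CRE (TGACGTCA) was found in none of the members' windows and in 1.55% of all promoters. All motifs were searched on both strands. Starts of members that rose held a GC box in 15 of 28, those of members that fell in 24 of 33 and those of members not called in 14 of 21. The 32851 promoters belong to 27025 genes and were not limited to genes tested here, and no difference in motifs was tested. Starts of the same gene can share sequence, and a match is a description of letters and not of binding.

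The catalytic DNA methyltransferase genes Dnmt1, Dnmt3a and Dnmt3b were lower in the TDP43-NLS libraries, while Uhrf1 was not called. Dnmt1 copies CpG methylation onto new DNA strands. Its levels were 595, 660 and 610 CPM in the GFP libraries and 318, 323 and 301 CPM in the TDP43-NLS libraries. Every GFP library was thus above every TDP43-NLS library by a wide margin. The gene fell 1.98-fold (log2 fold change -0.99, SE 0.05, edgeR adjusted p = 1.74e-09). Uhrf1, which brings Dnmt1 to replicating DNA, had 433, 435 and 431 CPM against 437, 428 and 425 CPM. These ranges overlap, and the log2 fold change was -0.01 (SE 0.04, adjusted p = 0.84). Its 60 tested neighbours within 5 Mb on chromosome 17 had a median log2 fold change of 0.29, and the part of that region was not tested. Set per Uhrf1 FPKM, Dnmt1 FPKM went from 0.829 ± 0.0423 to 0.422 ± 0.0134 (SD, n = 3 each, two-sided exact permutation p = 0.1, also after adjustment over the 8 combined levels tested). With 3 libraries a group 0.1 is the smallest p such a test can give.

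Dnmt1 lies on chromosome 9 (GRCm39, 20818505 to 20871184, minus strand) at 709 kb from Smarca4, and that stretch of the chromosome was lower as a whole. Of the 68 other tested genes whose starts lie within 5 Mb of Dnmt1, 52 fell and 3 rose, with a median log2 fold change of -0.65. Dnmt1 was 0.33 below that median (difference of log2 fold changes -0.33). Over the whole of chromosome 9, 418 of 712 tested genes fell and 91 rose, with a median of -0.31. The part of the region in the fall of Dnmt1 was not tested.

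**Figure D2:**
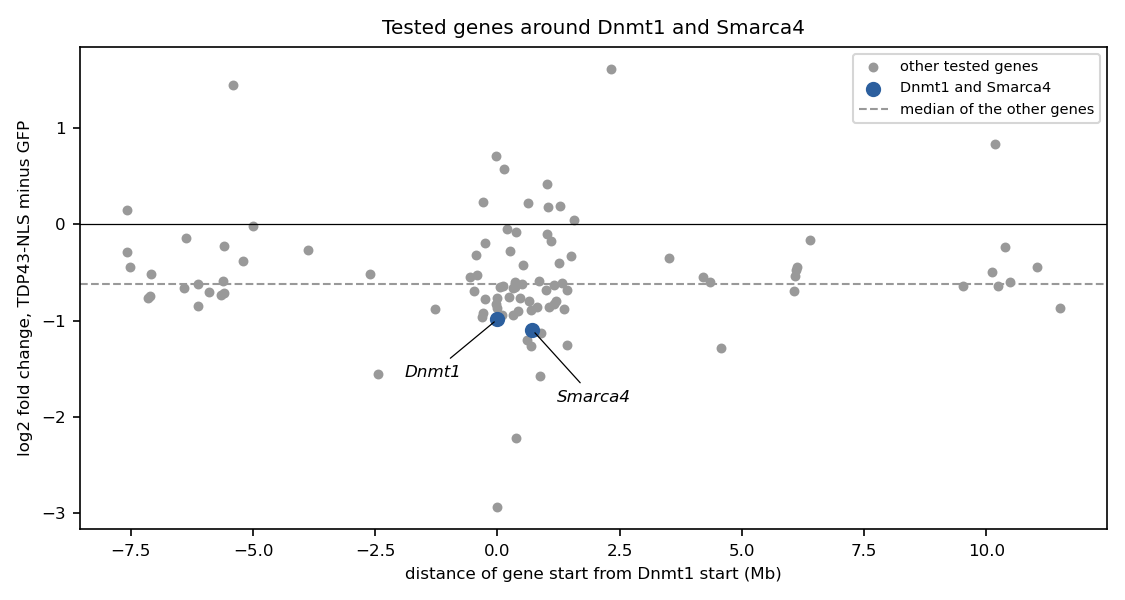
Log2 fold change (vertical axis, TDP43-NLS minus GFP) of tested genes on chromosome 9 by the distance of their start from that of Dnmt1 (horizontal axis, Mb). Of 97 other genes, 85 lie below 0 and their median is -0.62 (dashed line), with Dnmt1 at -0.99 and Smarca4 at -1.09 (blue).

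The de novo methyltransferase genes, which set new methylation marks, fell on other chromosomes. Dnmt3a, on chromosome 12, had 235, 252 and 251 CPM in the GFP libraries and 180, 181 and 180 CPM in the TDP43-NLS libraries. The groups were clearly apart, with a 1.36-fold fall (log2 fold change -0.45, SE 0.04, adjusted p = 9.16e-07). Its 32 tested neighbours within 5 Mb had a median log2 fold change of 0.14, in the other direction. The antisense gene Dnmt3aos, with 198 reads in all, fell by 1.27 on the log2 scale (adjusted p = 0.000202), and its reads may not have been told apart from those of Dnmt3a. Dnmt3b, on chromosome 2, is far less abundant, with 163, 207 and 173 reads against 48, 59 and 63. These correspond to 10.9 ± 1.24 and 3.39 ± 0.207 CPM (SD, n = 3 per group) and to a 3.19-fold fall (log2 fold change -1.67, SE 0.13, adjusted p = 1.32e-07). The related copy Dnmt3c lies 8.9 kb away and held 1 read, and the sources used here do not give how reads shared by both copies were counted. Dnmt3l, a cofactor without catalytic activity, rose from 9.22 to 14.2 CPM (log2 fold change 0.63, adjusted p = 8.71e-05). The summed FPKM of Dnmt1, Dnmt3a and Dnmt3b was 98.0, 109 and 101 under GFP and 53.7, 54.7 and 51.7 under TDP43-NLS.

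Of the dioxygenases that oxidise methylcytosine and so start its removal, Tet2 rose and Tet3 was not called. Tet2 had 36.8, 41.5 and 35.3 CPM against 54.4, 52.3 and 51.3 CPM, with no overlap (1.39-fold higher, log2 fold change 0.47, SE 0.06, adjusted p = 3e-05). Tet3, the more abundant by FPKM (6.80 against 2.27 in the GFP libraries), had a log2 fold change of 0.08 (adjusted p = 0.194). It was called without GFP replicate 2 (log2 fold change 0.14, adjusted p = 0.00426). The sum of both was 9.07 ± 0.674 FPKM in the GFP libraries and 10.1 ± 0.225 FPKM in the TDP43-NLS libraries (SD, n = 3 each, exact permutation p = 0.1). Uhrf2, a relative of Uhrf1 that binds modified cytosines, rose (log2 fold change 0.30, adjusted p = 0.000309). In this class 3 of 8 tested genes rose and 3 fell (37.5% each), beside 29.3% and 28.3% of all tested genes.

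**Figure D3:**
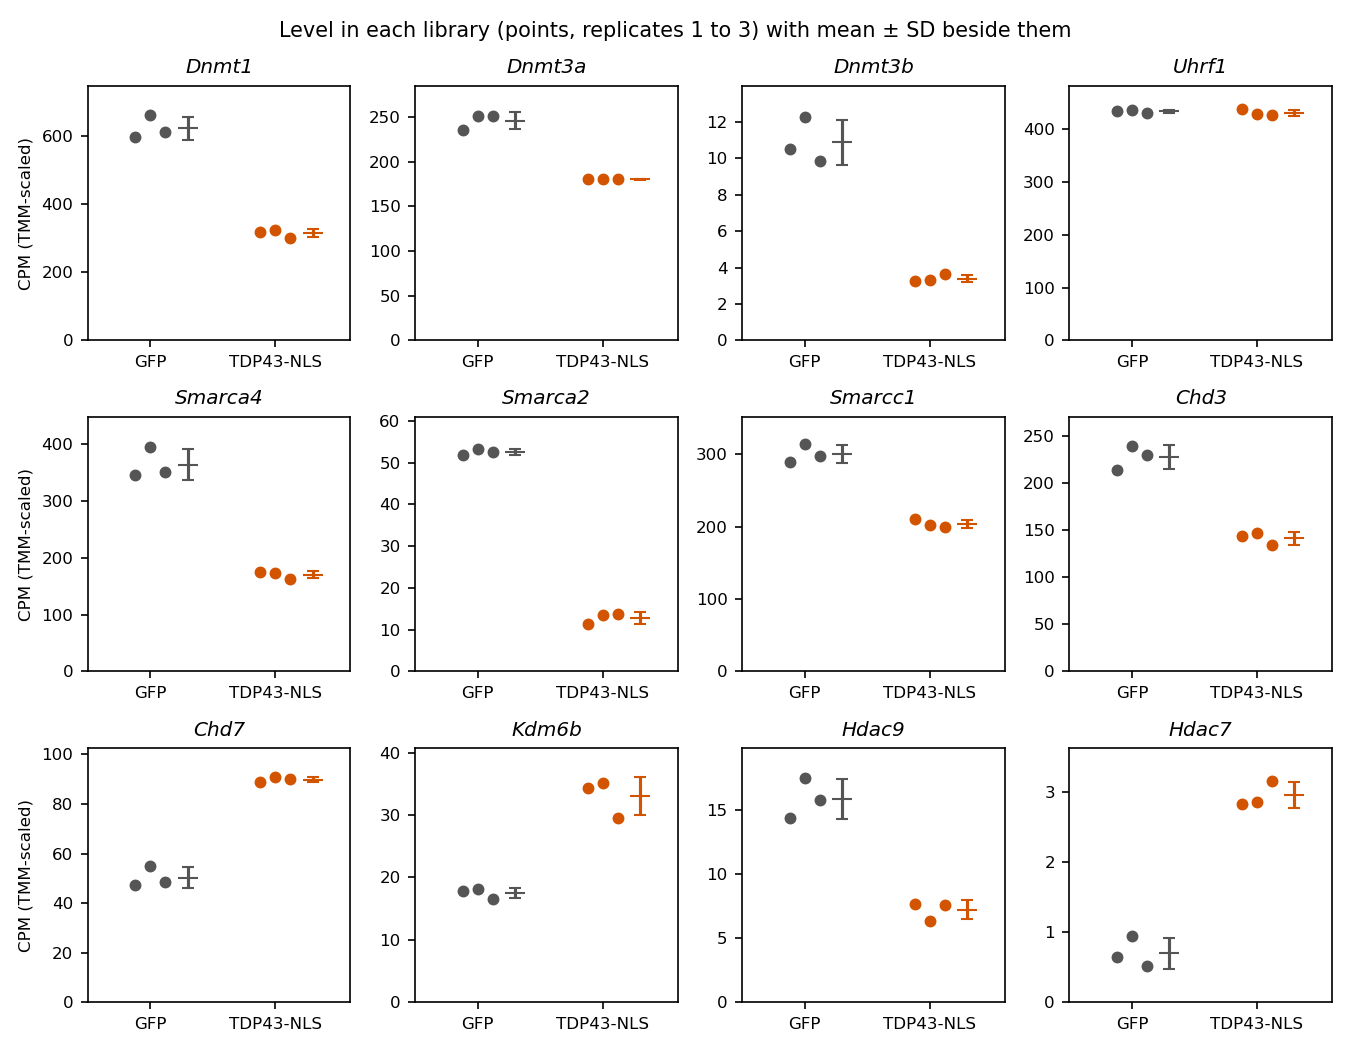
CPM after TMM scaling (vertical axes, from 0) of 12 genes in each library (points, replicates 1 to 3 from left to right), with the mean and SD of each group beside them. Dnmt1, Smarca4 and Smarca2 are lower in every TDP43-NLS library, Chd7 and Kdm6b are higher in every one, and Uhrf1 is level at 425 to 437 CPM.

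The SWI/SNF-related class held the largest fall of the module, and its median log2 fold change was -0.29. In it 7 of 12 tested genes were lower (58.3%) and 2 higher (16.7%), beside 28.3% and 29.3% of all tested genes. SWI/SNF (BAF) complexes use either of the ATPases Smarca4 (BRG1) and Smarca2 (BRM) as their motor, and both genes fell. Smarca2, on chromosome 19, had 51.9, 53.3 and 52.5 CPM in the GFP libraries and 11.3, 13.5 and 13.8 CPM in the TDP43-NLS libraries. No TDP43-NLS library came near the GFP range, and the fall was 4.07-fold (log2 fold change -2.02, SE 0.07, adjusted p = 9.15e-11). Its 43 tested neighbours within 5 Mb had a median log2 fold change of -0.02. Smarca4 had 346, 396 and 351 CPM against 175, 173 and 163 CPM. It fell 2.13-fold (log2 fold change -1.09, SE 0.05, adjusted p = 2.37e-09), again without overlap. Smarca4 lies on chromosome 9 (GRCm39, 21527465 to 21615526, plus strand), where its 67 tested neighbours had a median of -0.66, and the part of that region was not tested.

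By FPKM, Smarca4 was the major of these ATPases in both groups. Smarca2 made up 6.38%, 5.75% and 6.36% of the FPKM of both genes under GFP and 2.83%, 3.41% and 3.70% under TDP43-NLS (exact permutation p = 0.1, the smallest possible). Their summed FPKM was 60.6 ± 4.48 and 26.9 ± 0.915 (SD, n = 3 each), a ratio of 0.443.

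Core subunits of the complex were lower as well. Smarcc1 (BAF155), a scaffold subunit, had 289, 314 and 297 CPM against 210, 202 and 199 CPM, with the groups apart (log2 fold change -0.56, SE 0.04, adjusted p = 1.9e-07). It is on chromosome 9, where its 131 neighbours had a median of -0.27, and it overlaps the opposite-strand gene Dhx30, which fell by 0.51 on the log2 scale. The library protocol describes no strand-marking step, so reads of these genes may not have been told apart. Smarcb1 (SNF5), the subunit that anchors the complex on the nucleosome, fell by 0.46 (adjusted p = 8.73e-06), and its neighbours on chromosome 10 had a median of 0.03. Smarcd1 (BAF60A) fell by 0.36 (adjusted p = 8.1e-05) and Smarce1 (BAF57) by 0.14 (adjusted p = 0.0255). The Smarce1 call was lost in each of 4 of the 6 fits that left out a library: GFP replicate 1 (adjusted p = 0.0727), GFP replicate 3 (0.0623), TDP43-NLS replicate 1 (0.0791) and TDP43-NLS replicate 2 (0.16).

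Other Smarc genes moved little or upward. Smarcd2 (BAF60B), a paralog of Smarcd1, rose from 80.2 to 91.7 CPM (log2 fold change 0.19, adjusted p = 0.00269). Smarcc2 (BAF170) had 142 and 131 CPM and was not called (log2 fold change -0.11, adjusted p = 0.0716). Smarcd3 (BAF60C), near 1 CPM in both groups, was not called either (adjusted p = 0.269). It overlaps Chpf2 on the opposite strand, which had 3283 reads and rose by 0.36, so its value is uncertain. Smarca5 (SNF2H), the ISWI ATPase, fell by 0.22 (adjusted p = 0.000878) and Smarcad1, a remodeller of the INO80-like branch, rose by 0.27 (adjusted p = 0.00135). Smarcal1, which anneals DNA at stalled forks, had a log2 fold change of -0.07 (adjusted p = 0.233).

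CHD remodellers leaned the other way: 5 of 10 tested genes rose and 1 fell, beside 29.3% and 28.3% of all tested genes. Their median log2 fold change was 0.15, and the class was not tested as a set. Chd7, a remodeller of enhancers mutated in CHARGE syndrome, had 47.5, 55.1 and 48.4 CPM in the GFP libraries and 88.6, 90.9 and 89.9 CPM in the TDP43-NLS libraries. The groups were well apart (1.79-fold higher, log2 fold change 0.84, SE 0.06, adjusted p = 5.88e-08). Chd5, a mainly neuronal member, stayed low, with 31, 35 and 31 reads against 91, 123 and 102, and rose by 1.70 on the log2 scale (SE 0.15, adjusted p = 4.74e-07). The 5 neuronal markers summed to 0.237 to 0.57 CPM under GFP and 1.21 to 1.29 CPM under TDP43-NLS, with Rbfox3, Snap25 and Syt1 at 0 reads, and their part in the Chd5 value was not tested. Chd1l, a repair-linked remodeller, rose by 0.60 (adjusted p = 5.15e-07) and Chd2 by 0.42 (adjusted p = 1.06e-05). Chd2 overlaps the long non-coding gene Chaserr, which fell by 0.35 and held 12.9% as many reads.

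The NuRD ATPases moved apart. NuRD joins a Chd motor to deacetylases. Chd3 had 214, 239 and 229 CPM against 143, 146 and 134 CPM, with no overlap (log2 fold change -0.69, SE 0.05, adjusted p = 1.2e-07). Chd4, the major NuRD ATPase by FPKM, had 630, 697 and 650 CPM against 745, 746 and 733 CPM, a small rise without overlap (log2 fold change 0.17, adjusted p = 0.00432). The share of Chd3 in the FPKM of both was 24.7% ± 0.361 in the GFP libraries and 15.3% ± 0.495 in the TDP43-NLS libraries (SD, n = 3 each, exact permutation p = 0.1). Chd1, Chd6, Chd8 and Chd9 were not called, with log2 fold changes of 0.03 to 0.12. Without GFP replicate 2, Chd6 (log2 fold change 0.20, adjusted p = 0.00686) and Chd9 (0.14, adjusted p = 0.027) were called, and Chd9 also without TDP43-NLS replicate 3 (0.17, adjusted p = 0.031).

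Among histone demethylases 8 of 15 tested genes rose (53.3%) and 4 fell (26.7%), beside 29.3% and 28.3% of all tested genes. Their median log2 fold change was 0.13. The leading gene was Kdm6b (JMJD3), which removes the silencing methyl marks that Ezh2 places on histone H3 and is known as an inflammation-induced gene in macrophages. It had 17.8, 18.2 and 16.5 CPM in the GFP libraries and 34.4, 35.1 and 29.6 CPM in the TDP43-NLS libraries. The groups were apart by a wide margin (1.89-fold higher, log2 fold change 0.92, SE 0.08, adjusted p = 4.84e-07). Kdm6b and Chd3 are neighbours on chromosome 11 with a gap of 29.1 kb and moved in opposite directions. Kdm7a, a demethylase of the same silencing mark, rose by 0.56 (adjusted p = 9.66e-06) and Kdm6a (UTX), on the X chromosome, by 0.27 (adjusted p = 0.000922).

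The opposing methyltransferase Ezh2, the catalytic subunit of the Polycomb complex PRC2, fell. It had 109, 100 and 115 CPM against 86.1, 92.6 and 96.5 CPM, groups that lie close but do not overlap (log2 fold change -0.24, SE 0.06, adjusted p = 0.00367). Its paralog Ezh1 had 30.6 and 30.5 CPM and was not called (adjusted p = 0.932). The summed FPKM of Kdm6a and Kdm6b per summed FPKM of Ezh1 and Ezh2 was 0.388, 0.425 and 0.353 under GFP and 0.680, 0.632 and 0.583 under TDP43-NLS (exact permutation p = 0.1). Every TDP43-NLS library was above every GFP library in this ratio.

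The Kdm5 demethylases, which remove the activating methyl mark of promoters from histone H3, were slightly higher. Kdm5a rose by 0.27 (adjusted p = 0.000596) and the X-linked Kdm5c by 0.14 (adjusted p = 0.00897). Kdm5a overlaps the opposite-strand gene Ccdc77, which was not called. Kdm1a (LSD1) had a log2 fold change of 0.10 and Kdm1b (LSD2) of -0.14, neither called (adjusted p = 0.0748 and 0.0854), although Kdm1a was called without GFP replicate 2 (log2 fold change 0.13, adjusted p = 0.0116). Both overlap opposite-strand genes that fell: Luzp1 by 0.19 beside Kdm1a, and Dek, with 17641 reads, by 0.54 beside Kdm1b. Kdm2a and Kdm2b, which bind unmethylated CpG islands, fell by 0.24 and 0.34 (adjusted p = 0.000489 and 0.00061). Kdm2b overlaps the opposite-strand gene Rnf34, which rose by 0.24.

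Kdm8 (JMJD5) had the largest fall of the class, with 16.8, 17.9 and 17.5 CPM against 11.9, 10.4 and 11.5 CPM (log2 fold change -0.63, SE 0.08, adjusted p = 2.06e-05), and the groups did not overlap. Kdm3a, which acts on a silencing mark of histone H3, fell by 0.16 (adjusted p = 0.0327), and Kdm3b was not called (adjusted p = 0.886). The Kdm4 demethylases rose by small amounts: Kdm4a by 0.13, Kdm4b by 0.20 and Kdm4c by 0.19 (adjusted p = 0.0343, 0.0209 and 0.0487). Kdm4b lies 2.6 kb from Uhrf1 on chromosome 17, where its 60 tested neighbours had a median log2 fold change of 0.29. The number of demethylase genes that rose was 5 in place of 8 without GFP replicate 1 and again without TDP43-NLS replicate 1, where Kdm4a (adjusted p = 0.156 and 0.0977), Kdm4b (0.072 and 0.0845) and Kdm4c (0.169 and 0.0784) lost their calls. Kdm4a also lost its call without GFP replicate 3 (adjusted p = 0.0636), as did Kdm4c without GFP replicate 3 (0.101) or TDP43-NLS replicate 2 (0.191). Kdm3a lost its call without GFP replicate 1 (adjusted p = 0.0784), GFP replicate 3 (0.0657), TDP43-NLS replicate 1 (0.0734) or TDP43-NLS replicate 2 (0.169).

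Histone methyltransferases changed least in size. Of 18 tested genes 7 fell (38.9%), 3 rose (16.7%) and 8 were not called, beside 28.3% lower and 29.3% higher over all tested genes. All 18 lay within log2 fold changes of -0.32 and 0.42. Setd2, which methylates histone H3 over transcribed gene bodies, had 183, 201 and 179 CPM in the GFP libraries and 153, 147 and 151 CPM in the TDP43-NLS libraries. The groups did not overlap (log2 fold change -0.32, SE 0.05, adjusted p = 9.39e-05). It lies on chromosome 9 with its start 414.9 kb from that of Smarcc1, and its 130 neighbours had a median of -0.28, close to its own value. Setd6, which methylates the NF-kB subunit RelA, rose most, with 36.1 ± 1.40 CPM under GFP and 48.3 ± 2.22 CPM under TDP43-NLS (SD, n = 3 per group; log2 fold change 0.42, adjusted p = 3.07e-05). Setd5 rose by 0.22 (adjusted p = 0.000841), and Setd7, a mono-methyltransferase, fell by 0.20 (adjusted p = 0.00207).

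The COMPASS-type enzymes, which place the activating mark of promoters and enhancers, were lower or not called. Kmt2a (MLL1), on chromosome 9, had 99.6, 118 and 99.9 CPM against 91.9, 94.1 and 87.3 CPM (log2 fold change -0.21, SE 0.06, adjusted p = 0.011). The lowest GFP library was only just above the highest TDP43-NLS library, and the 65 neighbours had a median of -0.42, a larger fall than that of Kmt2a. Without TDP43-NLS replicate 3 the call was lost (adjusted p = 0.0616). Kmt2b fell by 0.16 (adjusted p = 0.04) with overlapping groups, and Setd1b by 0.30 (adjusted p = 0.0207). GFP replicate 2 was the highest library for Setd1b, at 79.5 CPM beside 60.0 and 57.3 CPM, and the Setd1b call was lost without TDP43-NLS replicate 3 (adjusted p = 0.102). Kmt2c, Kmt2d and Setd1a were not called, with log2 fold changes between -0.13 and -0.02. Kmt2e (MLL5), which is not a COMPASS enzyme despite its name, was not called either (log2 fold change -0.05, adjusted p = 0.514) and overlaps Srpk2 on the opposite strand, which had 9380 reads and fell by 0.31.

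Of the enzymes that methylate histone H4, Kmt5a, active in mitosis, fell by 0.16 (adjusted p = 0.0132, and 0.0727 without TDP43-NLS replicate 1), while Kmt5b and Kmt5c were not called (adjusted p = 0.12 and 0.612). Setd3, an actin histidine methyltransferase despite its name, rose by 0.11 (adjusted p = 0.0278). It lost the call without GFP replicate 1 (adjusted p = 0.084), TDP43-NLS replicate 2 (0.0835) or TDP43-NLS replicate 3 (0.0559), and it lies on chromosome 12, whose tested genes had a median of 0.17. Setd4 had a log2 fold change of 0.27 at 5.36 and 6.43 CPM and was not called (adjusted p = 0.0677), on a part of chromosome 16 where 33 of 58 neighbours fell. Kmt2b lost its call without GFP replicate 2 (adjusted p = 0.0838), GFP replicate 3 (0.0645), TDP43-NLS replicate 1 (0.0996) or TDP43-NLS replicate 3 (0.176). The number of methyltransferase genes that fell was 4 in place of 7 without TDP43-NLS replicate 3.

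Histone deacetylases were split, with 4 of 10 tested genes higher and 4 lower, beside 29.3% and 28.3% of all tested genes. The 4 higher include Hdac7, which passed the filter only through the TDP43-NLS libraries. In class I, Hdac1, which works in corepressor complexes such as Sin3 and NuRD, rose without overlap. It went from 117, 114 and 122 CPM to 141, 161 and 152 CPM (log2 fold change 0.36, SE 0.05, adjusted p = 6.1e-05). Hdac2, its close paralog, had 82.2 and 80.3 CPM and was not called (log2 fold change -0.03, adjusted p = 0.583). Hdac3, also a corepressor enzyme, rose by 0.20 (adjusted p = 0.00355), and Hdac8, on the X chromosome, fell by 0.35 (adjusted p = 0.00213). The share of Hdac1 in the FPKM of Hdac1, Hdac2 and Hdac3 was 50.2% ± 0.808 and 55.0% ± 2.03 (SD, n = 3 each, exact permutation p = 0.1).

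Class IIa deacetylases, signal-dependent corepressors of MEF2 factors, moved both ways. Hdac9 had 14.4, 17.5 and 15.8 CPM against 7.69, 6.35 and 7.60 CPM. It fell 2.21-fold without overlap (log2 fold change -1.14, SE 0.11, adjusted p = 9.65e-07), on chromosome 12, where its 21 neighbours had a median of 0.22 and none of them fell. Hdac4 fell by 0.38 (adjusted p = 0.00125) and Hdac5 by 0.23 (adjusted p = 0.00295). Hdac7 had 10, 16 and 9 reads under GFP and 42, 51 and 55 under TDP43-NLS, which is 0.701 ± 0.222 and 2.96 ± 0.184 CPM (SD, n = 3 each). It passed the filter only through the TDP43-NLS libraries, where it is high, so its log2 fold change of 2.07 is given as a description, although Hdac7 is among the genes counted as higher. Hdac7 overlaps Slc48a1 on the opposite strand, which rose by 0.99 and had 2437 and 4847 reads, many times those of Hdac7, so the Hdac7 value is uncertain. In class IIb, Hdac6, the cytoplasmic tubulin deacetylase, rose by 0.32 (adjusted p = 0.00105), and Hdac10 was not called (adjusted p = 0.122) except without GFP replicate 2 (log2 fold change -0.21, adjusted p = 0.0136).

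Members were compared with the genes around them because chromosomes 9 and 16 were lower and chromosome 12 higher as wholes (medians -0.31, -0.21 and 0.17). The 5 tested members on chromosome 9, which are Dnmt1, Smarca4, Smarcc1, Setd2 and Kmt2a, all fell. Of the 68 tested members elsewhere, 25 rose (36.8%) and 21 fell (30.9%), with a median of 0.00 (0.0006). Over all tested genes 29.3% rose and 28.3% fell. In 28 of 73 tested members the log2 fold change was over 0.3 away from the median of the tested genes within 5 Mb. Without the genes on chromosomes 9, 12, 16 and 17, 23 members rose and 19 fell, and of the DNA methylation genes that fell Dnmt3b alone was counted. The share over all genes left by this choice is not given. Chromosome 17 (median 0.08) was left out and chromosome 13 (median -0.12) was kept, so the choice did not follow the medians alone.

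Partner genes were read from lists by complex or role, and most of their log2 fold changes, given here on that scale, were small. The counts of each list stand beside 28.3% lower and 29.3% higher over all tested genes, and no list was tested as a set. BAF and PBAF partners had 9 of 18 tested genes lower and 4 higher (median log2 fold change -0.14). Bcl7a, a BAF subunit, had 40.5 ± 1.56 CPM under GFP and 24.2 ± 1.42 CPM under TDP43-NLS (SD, n = 3 per group) and fell by 0.74 (adjusted p = 4.41e-07) and Brd9, of the non-canonical complex, by 0.60. Phf10, of the PBAF complex, rose by 0.52 and lies on chromosome 17. COMPASS partners had 6 of 11 lower and none higher (median -0.15). Among them Wdr82, on chromosome 9, fell by 0.57, Paxip1 by 0.25 and the shared subunit Wdr5 by 0.23. Of NuRD partners 4 of 10 fell and 2 rose: Mbd3 had 211 ± 2.86 CPM under GFP and 135 ± 1.23 CPM under TDP43-NLS (SD, n = 3 per group), falling by 0.65 (adjusted p = 1.43e-08), and Cdk2ap1 by 0.58, and Mta3 rose by 0.42.

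PRC2 partners had 2 of 9 lower and 2 higher (median 0.04), where 28.3% of all tested genes were lower and 29.3% higher. Phf19 fell by 0.83 and Eed, a core subunit, by 0.29, while Mtf2 rose by 0.28. Deacetylase corepressors were mostly not called (15 of 20, median 0.04), with Rcor2 higher by 0.69 and Sin3b by 0.24. The sirtuins, the NAD-dependent deacetylases, had 6 of 7 higher and 1 lower (median 0.27), with Sirt5 up by 0.65, Sirt1 by 0.36 and Sirt2 by 0.27. Histone acetyltransferases had 6 of 12 lower and 1 higher (median -0.11). Kat2a (GCN5) fell by 0.53, Kat14 by 0.41 and Crebbp (CBP), on chromosome 16, by 0.38. Other histone methyltransferases had 8 of 18 lower and 5 higher (median -0.12), with Smyd5 down by 0.48, Ehmt1 by 0.27 and Ash1l by 0.25. Other JmjC proteins had 4 of 11 higher and 4 lower, with Phf8 down by 0.43, Hif1an by 0.30 and Hspbap1 up by 0.36.

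ISWI, INO80 and other remodellers had 6 of 24 higher and 6 lower (median 0.00, 0.0039), where 29.3% of all tested genes were higher and 28.3% lower. Baz1b fell by 0.48, Hells (LSH), which supports DNA methylation, by 0.46, and Baz2a rose by 0.41. Readers of methylated CpG and repair genes had 4 of 15 higher and 2 lower (median 0.08). Cxxc5, a CpG-binding zinc finger protein, is 1 of those counted lower, but it passed the filter only through the GFP libraries, where it is high, so its values are a description: 43, 68 and 56 reads under GFP and 5, 10 and 5 under TDP43-NLS. Zbtb4 rose by 0.82 and Ogt, the O-GlcNAc transferase that binds Tet proteins, by 0.29. S-phase genes were read because Dnmt1, Uhrf1 and Ezh2 are known to follow proliferation. Of the 20 S-phase genes 12 fell and 2 rose (median log2 fold change -0.16), beside -0.99 for Dnmt1, -0.24 for Ezh2 and -0.01 for Uhrf1, which was not called. Mcm5 fell by 0.44 and Mcm6 by 0.43, and Ccne1, a cyclin of S-phase entry, rose by 0.48. The part of proliferation in the values of Dnmt1 and Ezh2 was not tested.

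**Figure D4:**
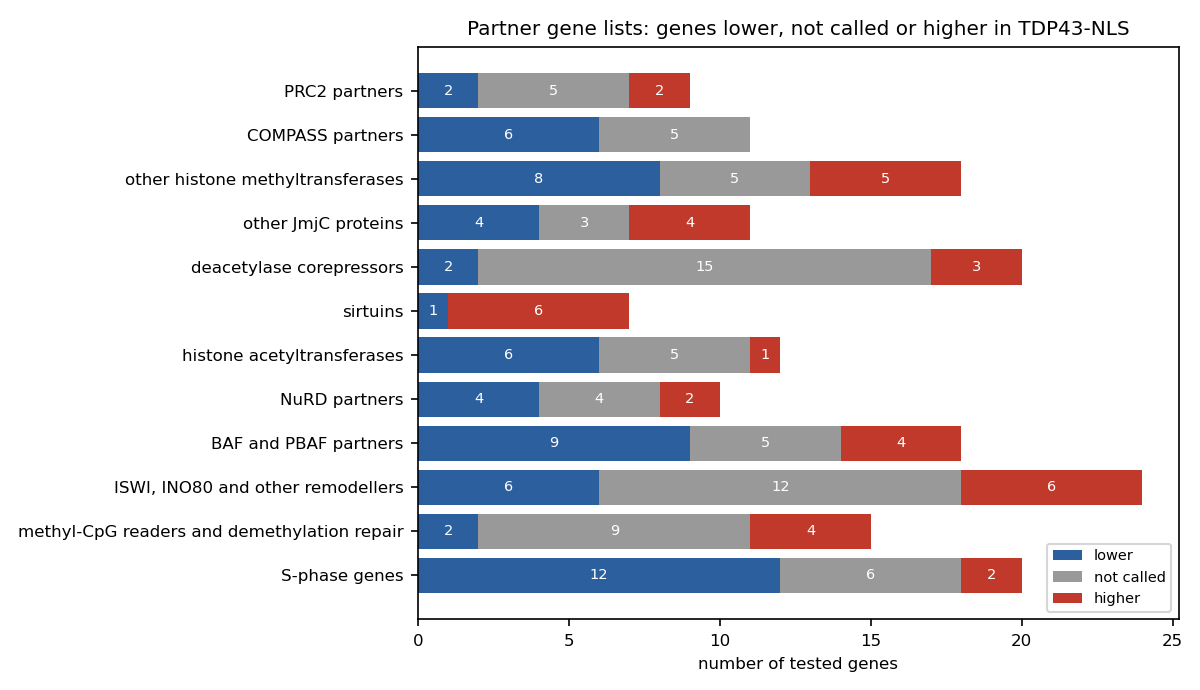
Number of tested genes in each partner list (horizontal axis) that were lower (blue), not called (grey) or higher (red) in the TDP43-NLS libraries. COMPASS partners show 6 lower and 0 higher, sirtuins 6 higher and 1 lower, and 15 of 20 deacetylase corepressors were not called. Over all tested genes 28.3% were lower and 29.3% higher.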

How the data were processed

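Poly(A)-selected RNA of 3 GFP and 3 TDP43-NLS libraries of BV2 cells was sequenced. The deposited count table holds whole-number counts of reads per gene for 55359 genes. The deposited FPKM table covers the 25032 genes with a read. Its values are the counts rescaled by a fixed length per gene and the library total (largest relative spread over libraries 6.66e-16), so they are not a second measurement. Bowtie2 2.2.3, HTSeq 0.6.0, HISAT2 2.1.0 and the build GRCm39 are named per the submitters' processing notes. Their roles, the strand setting and the treatment of reads matching several genes are not given in the sources used here, so near-identical, overlapping and antisense genes are uncertain.

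Counts were tested with edgeR 4.0.16 in R 4.3.3 (filterByExpr defaults of 10 reads and 15 in total, TMM, glmQLFit with legacy set to FALSE, group as the only term, two-sided). Benjamini-Hochberg adjustment ran over all 13199 genes tested. The SE is the log2 fold change divided by the square root of F. Neighbours are tested genes whose start lies within 5 Mb. FPKM sums and ratios were tested by exact permutation. Alternatives used DESeq2 1.42.0 and limma 3.58.1 among others. As a check of the code, counts of 13199 genes were simulated with only 50 genes changed at each fold. Of these, 64% of genes changed 1.25-fold, 80% of those changed 1.5-fold and all (100%) of those changed 2-fold or 4-fold were recovered. There were 10 false calls. In the data 57.6% of genes were called, far more than were changed in the simulation, so these rates do not give the power or error of this comparison.

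The members, gene lists and rules were chosen with earlier results of these data known. All members were accounted for. Values were given for up to 4 called members in each direction and class with the largest fold change at a mean of at least 1 CPM, for 10 fixed members, and for up to 3 genes per partner list with the smallest adjusted p; the values of the remaining members were added after they were seen. The replicate numbers did not pair the libraries. The lowest chi-square per degree of freedom between libraries of a group was 1.18. No threshold was set for it, and it cannot tell separate cultures from split or re-sequenced preparations. Some genes of the partner and marker lists are not reported here.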

Additional observations from a re-analysis of the deposited data

How the results depend on the processing

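The direction of all 51 called members was the same under every alternative that gave a value. The counts of 25 higher and 26 lower members stayed within 1.5 times under edgeR with RLE scaling or library totals, DESeq2 (21 and 23), no low-count filter, a stricter filter, limma on log2(FPKM + 1) or log2(FPKM + 0.1) (19 and 25 each), the replicate block (24 and 26) and without each library in turn. Tested against a log2 fold change of 0.5, only 4 rose (Chd5, Chd7, Kdm6b and Hdac7, the last with the filter limit given above) and 6 fell (Smarca2, Dnmt3b, Hdac9, Smarca4, Dnmt1 and Chd3). Of the 51 calls, 41 held in all 6 fits that left out a library, and 44 were also made by DESeq2. The 7 that DESeq2 did not make were Kdm3a, Kdm4a, Kdm4b, Kdm4c, Kmt2b, Setd3 and Smarce1. Demethylase genes higher were 5 in place of 8 under library totals, DESeq2 and limma. Same-numbered libraries did not deviate together (correlations of -0.016, -0.0112 and 0.0019), so the numbers were not taken to pair them. Low reads limit Hdac7, Chd5, Smarcd3 and Dnmt3b, and the 4 untested members give no fold.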
